A study of Mus musculus with 24 samples.

Results

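The mu class of glutathione S-transferases in the mouse consists of Gstm1 to Gstm7, 7 of the 24339 genes used here. They were chosen by gene symbol, and each symbol had 1 entry in the expression tables. All 7 reached 1 FPKM (fragments per kilobase of transcript, scaled to sequencing depth) in at least 3 of the 24 libraries, and so were among the 12282 genes tested. Liver mRNA of C57BL/6 mice was sequenced in 8 groups of 3 replicates. The groups were hCAR-TG mice, which carry a human CAR knock-in, at postnatal day 60 given CITCO or corn oil and at postnatal day 5 given CITCO or corn oil, and wild type (WT) mice at day 60 given TCPOBOP or corn oil and at day 5 given TCPOBOP or corn oil. CAR is the constitutive androstane receptor, TCPOBOP is an agonist of mouse CAR and CITCO is an agonist of human CAR, so receptor and ligand differ together where the responses of the genotypes are compared. The labels give no dose, no treatment time and no statement that replicates are separate animals, so p-values measure only the spread between these samples.

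Glutathione S-transferases join the tripeptide glutathione to electrophilic compounds, which makes them more soluble and marks them for export from the cell. Mu class enzymes are dimers of the cytosol that act on epoxides, unsaturated aldehydes and many drug metabolites. In rodent liver they belong to the conjugating enzymes that CAR activators such as phenobarbital are known to induce, and Gstm1 is the main mu class enzyme there. In humans the corresponding gene GSTM1 is missing from many healthy people.

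The 7 genes form a cluster on mouse chromosome 3. In the files' mm10 coordinates it spans 149006 bases, from 107895854 to 108044859. Along the chromosome the order is Gstm5, Gstm7, Gstm6, Gstm3, Gstm2, Gstm1 and Gstm4. GENCODE places Gstm5 on the plus strand and the other 6 genes on the minus strand. The gaps between neighbours range from 7102 bases (Gstm7 to Gstm6) to 27648 bases (Gstm5 to Gstm7).

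The promoter windows below show how the start regions of members with unlike behaviour compare: Gstm3 and Gstm1, which carry most of the summed family mRNA after TCPOBOP, Gstm7, which was not called in any ligand comparison as fitted, and Gstm5, which fell with age. Each runs 5′ to 3′ from upstream of a RefSeq start site to just past it (GRCm38.p6, the assembly also named mm10), on the gene's own strand. Capitals mark matches, on either strand, to 5 searched motifs. One is the nuclear receptor half-site AGGTCA, and another is its variant AGTTCA. The DR4 motif, the kind of element CAR binds with its partner RXR, is a direct repeat of AGNTCA with a 4-base spacer, so a DR4 match can also hold these half-sites. The core of the antioxidant response element was searched as TGACNNNGC. The TATA box was searched as TATAAA.
Gstm3 (chr3:107969125-107969424, minus strand): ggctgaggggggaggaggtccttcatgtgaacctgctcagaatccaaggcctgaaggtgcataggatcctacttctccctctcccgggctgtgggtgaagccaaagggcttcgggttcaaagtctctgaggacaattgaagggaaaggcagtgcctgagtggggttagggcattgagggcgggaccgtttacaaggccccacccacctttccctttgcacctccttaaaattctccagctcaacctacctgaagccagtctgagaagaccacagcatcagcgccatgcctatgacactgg
Gstm1, second start site (chr3:108017769-108018068, minus strand): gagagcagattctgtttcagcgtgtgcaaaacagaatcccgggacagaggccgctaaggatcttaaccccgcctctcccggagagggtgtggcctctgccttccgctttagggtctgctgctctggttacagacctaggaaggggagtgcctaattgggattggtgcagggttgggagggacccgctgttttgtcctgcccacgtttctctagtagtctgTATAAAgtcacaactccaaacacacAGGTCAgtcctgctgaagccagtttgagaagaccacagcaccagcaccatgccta
Gstm7, second start site (chr3:107931565-107931864, minus strand): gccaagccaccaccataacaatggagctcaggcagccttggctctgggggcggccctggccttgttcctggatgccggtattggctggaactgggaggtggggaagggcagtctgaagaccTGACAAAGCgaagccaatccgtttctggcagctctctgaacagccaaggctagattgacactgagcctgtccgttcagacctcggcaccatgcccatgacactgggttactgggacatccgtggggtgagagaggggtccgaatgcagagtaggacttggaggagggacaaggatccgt
Gstm5 (chr3:107895604-107895903, plus strand): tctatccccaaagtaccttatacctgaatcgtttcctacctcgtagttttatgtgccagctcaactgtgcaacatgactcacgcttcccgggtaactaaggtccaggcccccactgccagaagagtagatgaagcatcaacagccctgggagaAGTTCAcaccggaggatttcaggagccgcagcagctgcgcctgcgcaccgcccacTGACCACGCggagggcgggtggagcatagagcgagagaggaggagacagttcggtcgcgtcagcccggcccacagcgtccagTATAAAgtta

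The Gstm3 window held no match to any of the 5 motifs, and neither did any RefSeq window of Gstm2, Gstm4 or Gstm6. The Gstm1 window shown has TATAAA 30 to 25 bases before the start site and AGGTCA ending on the start site. The other Gstm1 window, whose start site lies 155 bases upstream at the 5′ end of the files' entry, had no match. Gstm5 held AGTTCA, TGACCACGC and, after the start site, TATAAA. Gstm7 held TGACAAAGC in the window shown and TATAAA in its other window. Of 32851 RefSeq promoter windows of this length, 0.12% held DR4, 16.3% AGGTCA, 13.99% AGTTCA, 12.4% TGACNNNGC and 13.6% TATAAA, which sets the scale for single matches. A match is a run of letters, and its absence from a window says nothing about sites elsewhere. Between different members the longest identical run was 16 bases, tgagaagaccacagca, shared by the Gstm3 and Gstm1 windows shown, downstream of both start sites.

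The coding sequences are more alike than the promoters. Over a single window per gene, promoters of different members were 44.8% to 51.0% identical when aligned. That window was the one with its start site nearest the 5′ end of the gene's entry, which for Gstm1 and Gstm7 is not the window shown. Over the longest coding transcript of each gene in GENCODE M21, the coding sequences of Gstm1 and Gstm3 were 89.4% identical, the highest of the 21 pairs, and Gstm5 was at most 71.1% identical to any other member. Of the 50-base windows of the Gstm3 transcript, 15.8% also occurred in another member, as did 10.9% for Gstm1, 6.7% for Gstm6 and 1.1% for Gstm2. No window of Gstm4, Gstm5 or Gstm7 did. How the authors' tables divided reads that match several members is not given in the sources used here, so the values of Gstm1, Gstm3 and Gstm6 are the less certain ones. For Gstm6 all 76 shared windows were shared with Gstm3, whose level was far higher in several groups, and what this adds to Gstm6 values was not tested.

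Each library's FPKM summed to between 446595 and 502458. Without read totals the depth is unknown. Relative depths taken from the width of the authors' intervals were 0.863 to 1.103. The half-width of the authors' interval was at most 2.65% of the value for Gstm1 and at most 15.3% for Gstm5, the member with the widest intervals. Cyp2b10, a cytochrome P450 gene that CAR is known to induce, averaged 1226 ± 31.0 FPKM with CITCO against 225.3 ± 16.5 with corn oil in day 60 hCAR-TG mice, and 435.4 ± 28.0 against 2.81 ± 2.13 at day 5 (SD, n = 3 each). In WT mice it averaged 2596 ± 179.8 with TCPOBOP against 12.9 ± 4.16 with corn oil at day 60, and 1694 ± 82.4 against 4.26 ± 1.18 at day 5. Hepatocyte markers were high in every library (Alb, the albumin gene, at 10579 FPKM or more). Pancreatic transcripts appeared in 1 library of each of 3 day 5 groups (WT with TCPOBOP, hCAR-TG with CITCO and WT with corn oil), where 8 acinar markers summed to 296.2, 267.9 and 198.8 FPKM, against at most 31.4 in the other libraries. Without these 3 libraries the counts of called members were 6 for TCPOBOP and 3 for CITCO at day 5, equal to those with them. Replicate 3 of day 5 hCAR-TG with corn oil lay farthest from its group's mean profile.

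Under corn oil Gstm1 was the leading member in each group. It made up 71.0% of the summed Gstm FPKM in day 60 hCAR-TG mice, 65.6% in day 5 hCAR-TG mice, 78.1% in day 60 WT mice and 61.9% in day 5 WT mice. The second member by mean share was Gstm3 in day 60 hCAR-TG mice (9.45%), Gstm6 in day 60 WT mice (6.21%), and Gstm7 in day 5 mice of both genotypes (10.02% in hCAR-TG and 12.7% in WT). In day 60 WT mice the order of Gstm6 and Gstm3 was not clear. Gstm3 held 5.40% to 5.56% there, within the Gstm6 range of 5.23% to 6.95%. FPKM is a level per length, so these shares compare members.

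**Figure D1:**
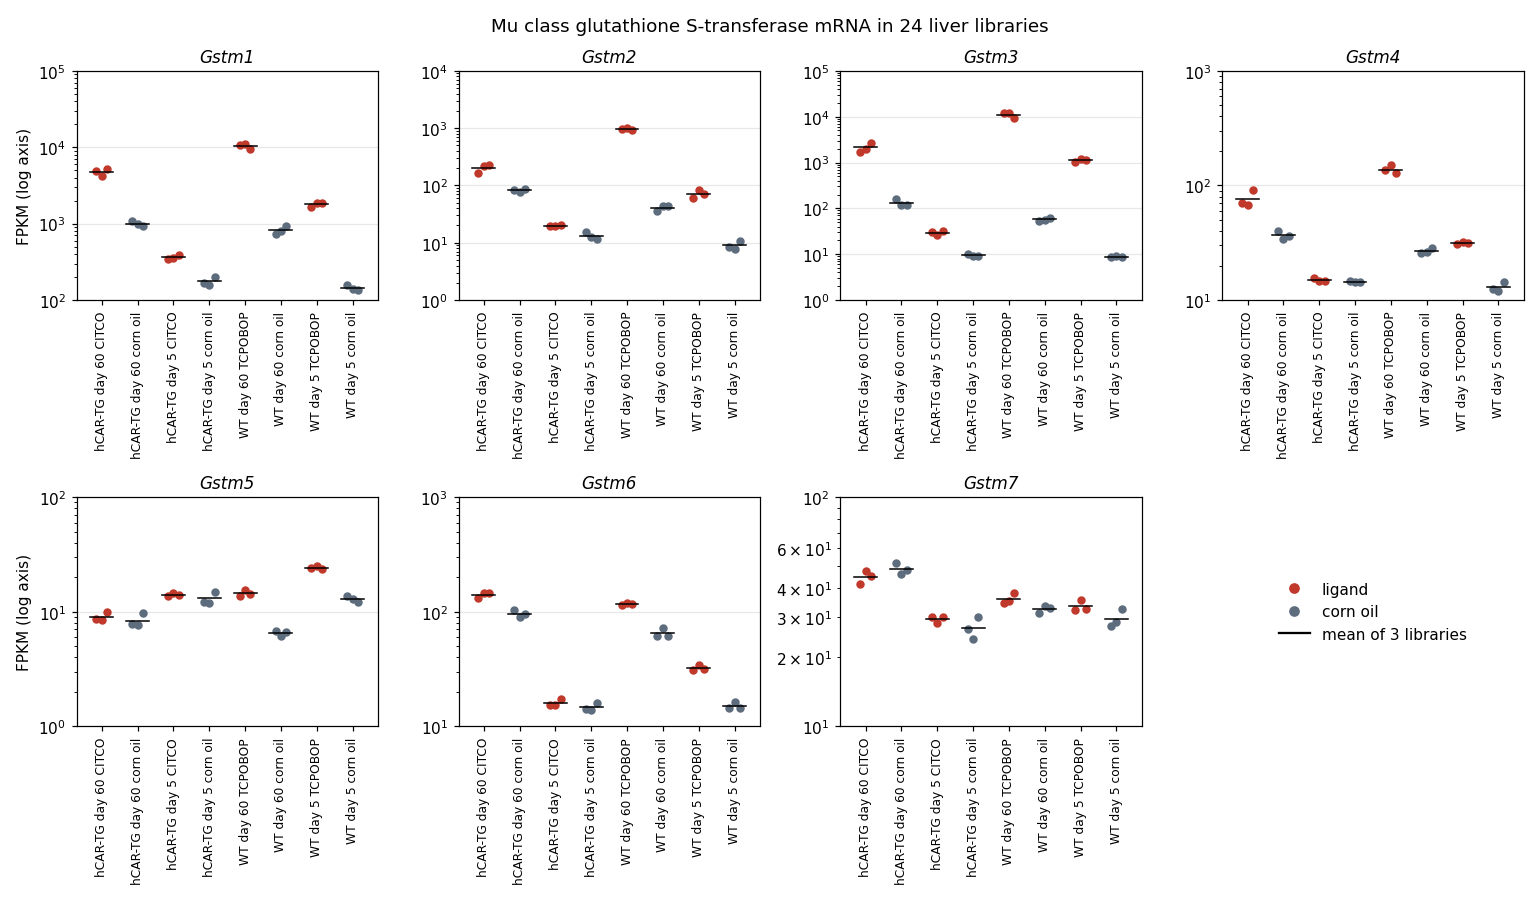
FPKM (log axis, range set for each gene) of the 7 Gstm genes in the 24 liver libraries, by group, with red points for ligand, grey points for corn oil and a black line for the mean of 3 libraries. Gstm3 spans 8.56 to 11891 FPKM, while Gstm7 stays between 24.01 and 51.6 FPKM.

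TCPOBOP raised 6 of the 7 members in WT liver at both ages, and the family took up 4.85% of all FPKM at day 60. At day 60 no member was called lower, and of all tested genes 31.4% were called higher and 15.8% lower. At day 5 no member was called lower either, and of all tested genes 24.6% were called higher and 11.3% lower. In the day 5 comparison the number that closes the read file name was 4 in all TCPOBOP and 3 in all corn oil libraries. Treatment and that number, whose meaning is not stated, cannot be told apart there. The member median of the log2 changes was 2.31 at day 60 and 1.22 at day 5, beside 0.06 and 0.04 for all tested genes. Log2 changes are of FPKM + 1, given ± SE, and a call is a limma adjusted p under 0.05.

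Gstm3, an enzyme of low level in untreated liver, responded most. At day 60 it had 11764, 11891 and 9343 FPKM with TCPOBOP, against 52.6, 55.9 and 62.9 FPKM with corn oil. The groups are far apart, by 192.5-fold in the means, and the log2 change was 7.56 ± 0.14 (adjusted p = 2.16e-19, limma). At day 5 it had 1033, 1187 and 1158 FPKM with TCPOBOP, against 8.56, 9.23 and 8.60 FPKM with corn oil. This is a 128.0-fold ratio of means and a log2 change of 6.84 ± 0.14 (adjusted p = 1.55e-18, limma).

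Gstm1, the main mu class enzyme of untreated liver, rose about equally at both ages on the log scale. At day 60 it had 10755, 10933 and 9628 FPKM with TCPOBOP, against 731.9, 797.9 and 929.1 FPKM with corn oil, a log2 change of 3.67 ± 0.11 (adjusted p = 1.40e-16, limma). At day 5 it had 1638, 1873 and 1840 FPKM with TCPOBOP, against 156.2, 139.5 and 136.0 FPKM with corn oil, a log2 change of 3.62 ± 0.11 (adjusted p = 3.96e-16, limma). With TCPOBOP at day 60, Gstm1 and Gstm3 each ranked between 2 and 4 among all genes of every library. Gstm3, which had 0.07 of the Gstm1 level with corn oil, reached 1.05 ± 0.07 of it with TCPOBOP (SD, n = 3), and at day 5 the ratio was 0.63 ± 0.002 with TCPOBOP and 0.06 ± 0.006 with corn oil.

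Gstm2, which lies between Gstm3 and Gstm1, was the third strong responder. At day 60 it had 983.2, 1005 and 910.7 FPKM with TCPOBOP, against 36.4, 43.8 and 43.0 FPKM with corn oil, a log2 change of 4.53 ± 0.13 (adjusted p = 9.02e-17, limma). At day 5 it had 61.4, 84.4 and 70.1 FPKM with TCPOBOP, against 8.47, 7.83 and 10.7 FPKM with corn oil, a log2 change of 2.87 ± 0.13 (adjusted p = 2.96e-13, limma). The ranges did not overlap at either age.

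Gstm4, at the far end of the cluster, changed less. At day 60 it had 135.1, 149.4 and 127.3 FPKM with TCPOBOP, against 25.8, 26.1 and 28.7 FPKM with corn oil, a log2 change of 2.31 ± 0.09 (adjusted p = 2.04e-14, limma). At day 5 it had 30.8, 32.01 and 31.4 FPKM with TCPOBOP, against 12.6, 11.9 and 14.2 FPKM with corn oil, a log2 change of 1.22 ± 0.09 (adjusted p = 1.17e-09, limma). The groups did not overlap at either age, and the day 5 TCPOBOP libraries lay above the day 60 corn oil libraries.

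Gstm6 and Gstm5 changed by near 2-fold. Gstm6 had 114.7, 120.1 and 116.1 FPKM with TCPOBOP at day 60, against 61.1, 71.97 and 60.9 FPKM with corn oil, a log2 change of 0.85 ± 0.08 (adjusted p = 1.45e-08, limma). At day 5 Gstm6 averaged 32.2 ± 1.97 FPKM with TCPOBOP and 15.1 ± 1.15 FPKM with corn oil (SD, n = 3), a log2 change of 1.05 ± 0.08. Gstm5, the mouse ortholog of human GSTM3, had 13.8, 15.4 and 14.1 FPKM with TCPOBOP at day 60, against 6.73, 6.19 and 6.60 FPKM with corn oil, a log2 change of 1.04 ± 0.09 (adjusted p = 2.61e-09, limma). At day 5 Gstm5 averaged 24.3 ± 0.73 FPKM with TCPOBOP and 13.0 ± 0.81 FPKM with corn oil, a log2 change of 0.86 ± 0.09.

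Gstm7 was not called with TCPOBOP at either age. At day 60 it had 34.4, 35.3 and 38.2 FPKM with TCPOBOP, against 31.3, 33.5 and 33.0 FPKM with corn oil. The ranges did not overlap, yet the log2 change was 0.14 (95% interval -0.02 to 0.30, adjusted p = 0.159, limma). In day 5 mice it had 32.2, 35.5 and 32.5 FPKM with TCPOBOP, against 27.4, 28.6 and 32.4 FPKM with corn oil, with overlapping ranges and a log2 change of 0.18 (95% interval 0.01 to 0.34, adjusted p = 0.0833, limma). The day 5 change was called without replicate 3 of the corn oil group (0.24, adjusted p = 0.024) and with array weights, which give outlying libraries less weight (0.17, adjusted p = 0.00794). With array weights 6665 of the 12282 genes were called in that comparison, and 4408 without them. In the same libraries the summed FPKM of 5 hepatocyte markers was 21321 to 23357 with TCPOBOP at day 60, against 38665 to 47566 with corn oil. Sums of stellate cell markers (101.9 to 104.01 against 135.2 to 153.8), sinusoidal endothelial markers (90.3 to 93.3 against 109.6 to 122.2), erythroid markers (698.8 to 1238 against 1450 to 1946), cholangiocyte markers (36.1 to 56.7 against 18.5 to 23.7) and neutrophil markers (7.65 to 13.6 against 5.32 to 7.12) were separate as well. At lower sums, so were pancreatic acinar (3.92 to 6.29 against 9.49 to 11.6) and skeletal muscle markers (0.0881 to 0.149 against 0.0146 to 0.0577). At day 5 the hepatocyte sum was 55407 to 59465 FPKM with TCPOBOP and 73992 to 75196 FPKM with corn oil, and stellate cell (137.6 to 156.3 against 219.2 to 240.5), Kupffer cell (390.3 to 513.3 against 313.01 to 341.3) and intestinal markers (100.1 to 133.4 against 70.8 to 87.99) were also separate. Of the intestinal list, Fabp2 and Cdhr5 had at least 18.8 and 4.14 FPKM in every library. Defa24 and Lypd8 of that list were at 0 in 17 and 13 of the 24 libraries. The part of these shifts in the Gstm values was not tested. In these bulk samples a change in cell number, in RNA per cell or in the level of the marker genes themselves cannot be told apart.

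**Figure D2:**
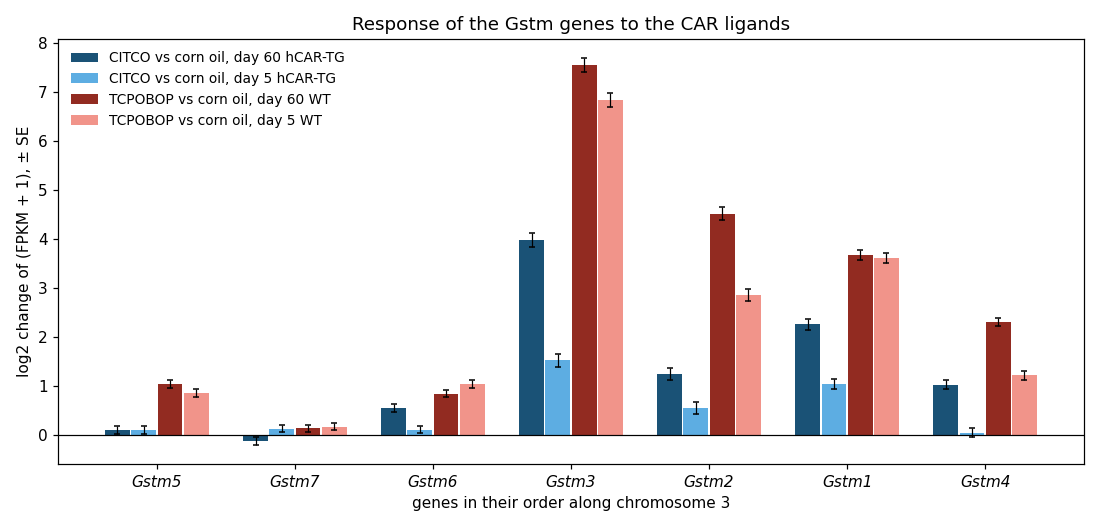
Log2 change of FPKM + 1 (bars, ± SE from the limma fit) of each Gstm gene in the 4 ligand comparisons, genes in their order along chromosome 3. The bars of Gstm3, Gstm2 and Gstm1 in the right part of the cluster are the tallest in WT mice, and Gstm7 stays between -0.12 and 0.18 in all 4 comparisons.

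CITCO in hCAR-TG mice raised 5 members at day 60 and 3 at day 5. At day 60, 5 of 7 were called higher and none lower, with 4.40% of all tested genes called higher and 3.97% lower. At day 5, 3 of 7 were called higher and none lower, with 8.27% of all tested genes called higher and 8.82% lower. The number that closes the read file name was 5 in all day 5 CITCO libraries. With corn oil it was 4 in replicates 1 and 2 and 5 in replicate 3, so only replicate 3 tells treatment and that number apart. With the number as a factor, 3 members were called at day 5, in a fit that called 4793 of all tested genes, against 2099 without it. The member median of the log2 changes was 1.03 at day 60 and 0.13 at day 5, beside 0.00 and 0.01 for all tested genes. Summed over the family, FPKM averaged 7385 ± 923.7 with CITCO and 1400 ± 107.6 with corn oil at day 60, and 484.5 ± 31.1 with CITCO and 267.6 ± 28.9 with corn oil at day 5 (SD, n = 3 each).

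Gstm3 again had the largest change among members. At day 60 it had 1740, 1935 and 2723 FPKM with CITCO, against 159.0, 119.3 and 120.1 FPKM with corn oil, a 16.1-fold ratio of means and a log2 change of 3.98 ± 0.14 (adjusted p = 1.28e-13, limma). In day 5 mice it had 30.3, 26.1 and 31.9 FPKM with CITCO, against 10.3, 9.03 and 9.29 FPKM with corn oil, a 3.09-fold ratio of means and a log2 change of 1.53 ± 0.14 (adjusted p = 2.01e-07, limma). The CITCO replicates at day 60 varied more than any other group of Gstm3, with a coefficient of variation of 24.4%.

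Gstm1 had 4958, 4209 and 5176 FPKM with CITCO at day 60, against 1074, 987.4 and 919.9 FPKM with corn oil, a log2 change of 2.26 ± 0.11 (adjusted p = 6.55e-12, limma). In day 5 mice it had 340.1, 350.3 and 391.6 FPKM with CITCO, against 168.7, 156.1 and 202.6 FPKM with corn oil, a log2 change of 1.04 ± 0.11 (adjusted p = 1.02e-06, limma). At neither age did the groups overlap. The Gstm3 to Gstm1 ratio was 0.45 ± 0.09 with CITCO and 0.13 ± 0.01 with corn oil at day 60, and 0.08 ± 0.007 with CITCO and 0.05 ± 0.008 with corn oil at day 5 (SD, n = 3).

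Gstm2 had 163.5, 214.8 and 223.8 FPKM with CITCO at day 60, against 84.9, 77.8 and 87.9 FPKM with corn oil, a log2 change of 1.24 ± 0.13 (adjusted p = 1.11e-06, limma). In day 5 mice it had 19.2, 19.6 and 20.4 FPKM with CITCO, against 15.1, 12.7 and 11.8 FPKM with corn oil, a log2 change of 0.55 ± 0.13 (adjusted p = 0.00517, limma). Gstm2 is thus the third and last member called at day 5. Gstm4 and Gstm6 were called at day 60 alone: Gstm4 averaged 76.5 ± 13.2 FPKM with CITCO and 36.8 ± 3.02 FPKM with corn oil (log2 change 1.03 ± 0.09, adjusted p = 1.49e-07, limma).

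Gstm6 averaged 140.5 ± 7.03 FPKM with CITCO and 95.9 ± 7.46 FPKM with corn oil at day 60 (SD, n = 3; log2 change 0.55 ± 0.08, adjusted p = 0.000118, limma). At day 5 the changes of Gstm4, Gstm5, Gstm6 and Gstm7 were 0.05, 0.11, 0.11 and 0.13 on the log2 scale, and none was called. With array weights Gstm5, Gstm6 and Gstm7 were called, in a fit that called 5259 of the 12282 genes, against 2099 without the weights. Gstm5 averaged 9.02 ± 0.87 FPKM with CITCO and 8.37 ± 1.17 FPKM with corn oil at day 60 (log2 change 0.10, 95% interval -0.08 to 0.28). Gstm7 averaged 44.9 ± 2.91 FPKM with CITCO and 48.7 ± 2.74 FPKM with corn oil at day 60 (log2 change -0.12, 95% interval -0.28 to 0.05). The ranges of both members overlapped between the treatments. The 5 hepatocyte markers summed to 37237 to 42699 FPKM with CITCO at day 60, against 43343 to 50743 FPKM with corn oil, and stellate cell markers to 108.5 to 120.9 FPKM with CITCO, against 137.5 to 165.5 FPKM with corn oil. At day 5 separate ranges were seen for hepatocyte markers (59863 to 62636 FPKM with CITCO, against 66136 to 68474 with corn oil), erythroid markers (7610 to 8946 against 10746 to 13629), neutrophil markers (550.6 to 1068 against 1108 to 1432), sinusoidal endothelial markers (106.1 to 114.4 against 132.03 to 159.02) and intestinal markers (71.06 to 78.4 against 80.7 to 95.4). Their part in the Gstm values was not tested.

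**Figure D3:**
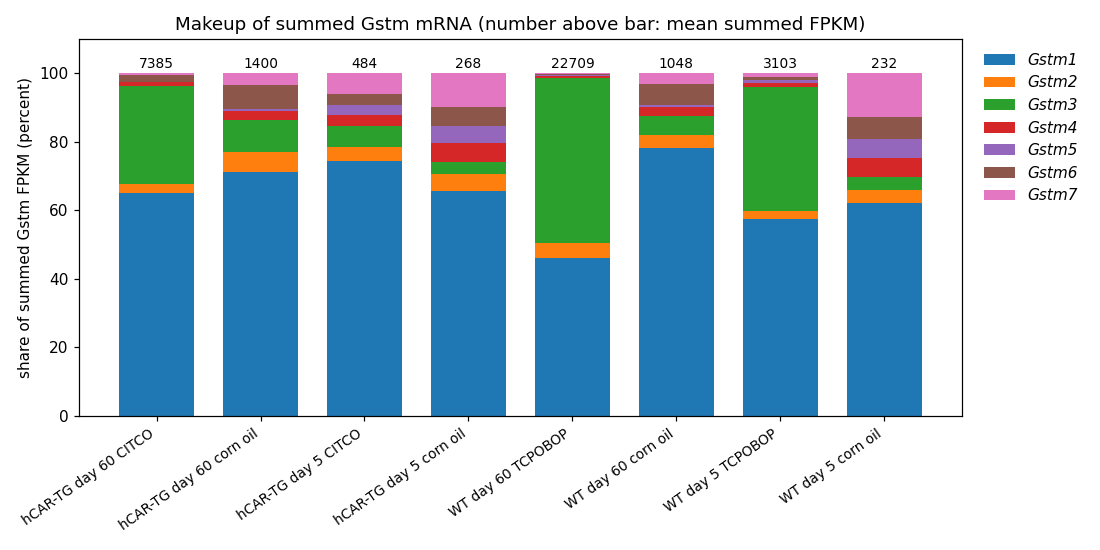
Share of each member in the summed Gstm FPKM (percent, means of 3 libraries), by group, with the mean summed FPKM above each bar. Gstm3 holds 48.3% in day 60 WT mice given TCPOBOP against 5.45% with corn oil, and 28.7% in day 60 hCAR-TG mice given CITCO against 9.45% with corn oil.

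The response at day 60 was set against that at day 5 by a test of the difference. For CITCO in hCAR-TG mice, 5 of 7 members had a larger response at day 60 and none a smaller one, with 5.37% of all tested genes called larger and 4.62% smaller. The differences of log2 changes were 2.45 ± 0.20 for Gstm3 (adjusted p = 1.07e-07, limma), 1.22 ± 0.15 for Gstm1, 0.98 ± 0.13 for Gstm4, 0.69 ± 0.18 for Gstm2 and 0.43 ± 0.11 for Gstm6. For TCPOBOP in WT mice, 3 of 7 members had a larger response at day 60 and none a smaller one, with 13.7% of all tested genes called larger and 9.76% smaller.

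Those 3 were Gstm2 (1.66 ± 0.18, adjusted p = 6.07e-07, limma), Gstm4 (1.09 ± 0.13, adjusted p = 2.18e-06) and Gstm3 (0.72 ± 0.20, adjusted p = 0.0107). Gstm1 differed by 0.05 ± 0.15 between the ages under TCPOBOP, with a 95% interval of -0.26 to 0.36 (adjusted p = 0.853, limma). As fitted, Gstm5, Gstm6 and Gstm7 were not called under TCPOBOP, nor Gstm5 and Gstm7 under CITCO. Gstm7 was called smaller at day 60 under CITCO with array weights (-0.34, adjusted p = 0.0018) and without replicate 3 of the day 5 corn oil group (-0.33, adjusted p = 0.0424). Gstm5 was called larger under TCPOBOP with array weights (0.25, adjusted p = 0.0432). Array weights called 3279 of the 12282 genes for CITCO and 5037 for TCPOBOP, against 1227 and 2879 without them. The member median difference was 0.69 for CITCO and 0.18 for TCPOBOP, beside -0.01 and 0.03 for all tested genes. The CITCO calls of Gstm2 and Gstm6 were lost under single settings. For Gstm2 it was 0.26 (adjusted p = 0.393) with the number that closes the read file name as a factor, and 0.61 (adjusted p = 0.0522) without replicate 3 of the day 60 CITCO group. Gstm6 lost its call without replicate 2 of the day 5 CITCO group (adjusted p = 0.0506) or replicate 2 of the day 60 corn oil group (adjusted p = 0.054).

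The CITCO response of hCAR-TG mice was smaller than the TCPOBOP response of WT mice in 6 of 7 members at both ages. No member had a larger one. Of all tested genes, 24.1% were called smaller and 9.77% larger at day 60, and 22.2% smaller and 11.5% larger at day 5. A smaller value here is a lower signed log2 change. The difference for Gstm3 was -3.58 ± 0.20 at day 60 and -5.32 ± 0.20 at day 5, and for Gstm2 it was -3.28 ± 0.18 at day 60 and -2.32 ± 0.18 at day 5. For Gstm1 it was -1.41 ± 0.15 at day 60 and -2.58 ± 0.15 at day 5. Gstm7 differed by -0.25 at day 60 (95% interval -0.48 to -0.02, adjusted p = 0.0836, limma) and by -0.04 at day 5 (95% interval -0.27 to 0.19). Its day 60 difference was called with the compared libraries alone (-0.25, adjusted p = 0.0355).

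At day 60 the Gstm6 difference of -0.30 ± 0.11 (adjusted p = 0.0424, limma) passed narrowly, and with median-of-ratios scaling it was -0.17 with an adjusted p of 0.287. It also lost its call with no filter (adjusted p = 0.0624) and in 8 of 12 fits that left out a library, with adjusted p-values of 0.0581 to 0.124. Human and mouse receptor, CITCO and TCPOBOP, and any difference in dose cannot be told apart in these comparisons. With corn oil alone at day 60, 6 of 7 members, all but Gstm1, were called higher in hCAR-TG than in WT mice, as described next. The part of this in the differences between responses was not tested.

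**Figure D4:**
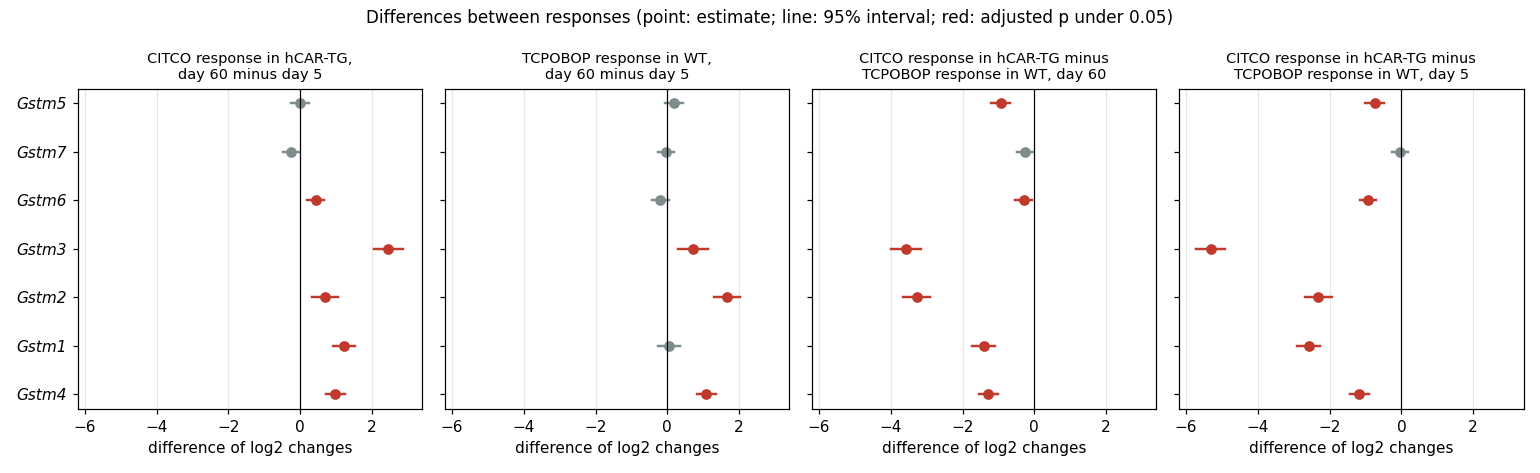
Differences between log2 changes (points, with 95% intervals as lines) for each Gstm gene, in red where the adjusted p was under 0.05. Gstm3 has the largest positive difference between ages under CITCO (2.45) and the most negative one between hCAR-TG with CITCO and WT with TCPOBOP at day 5 (-5.32).

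With corn oil alone at day 60, 6 of 7 members were higher in hCAR-TG than in WT mice and none lower, with 3.05% of all tested genes called higher and 1.85% lower. Gstm3 had 159.0, 119.3 and 120.1 FPKM in hCAR-TG mice, against 52.6, 55.9 and 62.9 FPKM in WT mice, a log2 change of 1.19 ± 0.14 (adjusted p = 1.39e-05, limma). Gstm2 had 84.9, 77.8 and 87.9 FPKM in hCAR-TG mice, against 36.4, 43.8 and 43.0 FPKM in WT mice, a log2 change of 1.009 ± 0.13 (adjusted p = 2.97e-05, limma). For both genes each hCAR-TG library was above each WT library.

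Gstm7 was among the members that differed by genotype. It had 51.6, 46.2 and 48.1 FPKM in day 60 hCAR-TG mice, against 31.3, 33.5 and 33.0 FPKM in WT mice, a log2 change of 0.56 ± 0.08 (adjusted p = 9.38e-05, limma). Gstm6 also changed by 0.56 ± 0.08, Gstm4 by 0.44 ± 0.09 and Gstm5 by 0.31 ± 0.09 (adjusted p = 0.0383). Gstm1 had 1074, 987.4 and 919.9 FPKM in hCAR-TG mice, against 731.9, 797.9 and 929.1 FPKM in WT mice, with overlapping ranges and a log2 change of 0.28 ± 0.11 (adjusted p = 0.149, limma).

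In the same libraries Cyp2b10 averaged 225.3 FPKM in hCAR-TG and 12.9 FPKM in WT mice. The number that closes the read file name, whose meaning is not stated, was 2 in all 3 hCAR-TG libraries and 1 in all 3 WT libraries of this comparison. With that number as a factor in the fit over all libraries, 2 of 7 members were called, Gstm2 and Gstm3, while Gstm4 (0.60), Gstm5 (0.35), Gstm6 (0.58) and Gstm7 (0.43) had adjusted p-values of 0.0952, 0.31, 0.0506 and 0.0902. Without the factor these 4 log2 changes were 0.44, 0.31, 0.56 and 0.56. Numbers 1 and 2 occur together in 1 group only, day 60 WT with TCPOBOP, where replicate 3 has 2. The adjustment in this comparison thus rests on that library. The fit with the factor called 109 of the 12282 genes, against 602 without it. Gstm5 also lost its call in 4 of 6 fits that left out a library, with an adjusted p of up to 0.198, and under median-of-ratios scaling (0.053), with no filter (0.0597) and with the compared libraries alone (0.136). Marker sums with separate ranges were those of neutrophils (16.8 to 21.8 FPKM in hCAR-TG mice, against 5.32 to 7.12 in WT mice), cholangiocytes (27.5 to 35.3 against 18.5 to 23.7), sinusoidal endothelium (91.4 to 102.5 against 109.6 to 122.2), erythroid cells (1113 to 1446 against 1450 to 1946) and the intestinal list (53.8 to 61.96 against 70.97 to 88.8). Pancreatic acinar markers were separate too (13.7 to 19.4 against 9.49 to 11.6). The part of all these sums in the Gstm values was not tested.

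With corn oil at day 5, 1 of 7 members was called higher in hCAR-TG mice and none lower, with 8.29% of all tested genes called higher and 2.27% lower. That member was Gstm2, with 15.1, 12.7 and 11.8 FPKM in hCAR-TG mice, against 8.47, 7.83 and 10.7 FPKM in WT mice, a log2 change of 0.51 ± 0.13 (adjusted p = 0.0108, limma). Its adjusted p was 0.14 with the 6 compared libraries alone, 0.0638 without the 3 libraries that hold pancreatic transcripts, and 0.0517, 0.0759 and 0.0552 without replicate 1 or 2 of WT or replicate 1 of hCAR-TG. The other 6 members changed by -0.13 to 0.28 on the log2 scale. With array weights Gstm4 was called higher (0.21, adjusted p = 0.0272, limma) and Gstm7 lower (-0.23, adjusted p = 0.00299). In these libraries 6 erythroid markers summed to 10746 to 13629 FPKM in hCAR-TG mice, against 4624 to 6488 FPKM in WT mice. Neutrophil markers (1108 to 1432 against 297.1 to 767.4), stellate cell markers (189.2 to 202.8 against 219.2 to 240.5) and hepatocyte markers (66136 to 68474 against 73992 to 75196) were also separate, and the part of these in the Gstm2 value was not tested.

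The family differed strongly between the ages under corn oil. The number that closes the read file name differed between the ages too. In WT mice it was 1 in all day 60 and 3 in all day 5 corn oil libraries. In hCAR-TG mice it was 2 in all day 60 and 4 or 5 in the day 5 corn oil libraries. Age and that number cannot be told apart in hCAR-TG mice. In hCAR-TG mice 6 members were higher and 1 lower at day 60 than at day 5, while 24.3% of all tested genes were called higher and 47.3% lower. In WT mice 5 were higher and 1 lower, while 25.2% of all tested genes were called higher and 44.9% lower. The member median log2 change was 2.50 in hCAR-TG and 2.03 in WT mice, beside -0.17 and -0.14 for all tested genes. Median-of-ratios scaling moved the median of all genes up by 0.19 in hCAR-TG and 0.15 in WT mice, to 0.02 and 0.01, and the members moved with it.

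Gstm1 averaged 993.9 ± 77.4 FPKM at day 60 and 175.8 ± 24.04 FPKM at day 5 in hCAR-TG mice, and 819.7 ± 100.4 FPKM at day 60 and 143.9 ± 10.8 FPKM at day 5 in WT mice (SD, n = 3 each). Its log2 change was 2.50 ± 0.11 in both genotypes. Gstm3 changed by 3.66 ± 0.14 in hCAR-TG and 2.57 ± 0.14 in WT mice, Gstm6 by 2.63 ± 0.08 and 2.03 ± 0.08, Gstm2 by 2.58 ± 0.13 and 2.08 ± 0.13, and Gstm4 by 1.28 ± 0.09 and 1.003 ± 0.09. All of these had adjusted p-values of 4.07e-09 or lower (limma) and groups that did not overlap, and the differences between genotypes in these changes were not tested.

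Gstm5 went the other way. It had 7.78, 7.61 and 9.71 FPKM at day 60, against 12.3, 11.99 and 14.98 FPKM at day 5, in hCAR-TG mice, and fell by 0.59 ± 0.09 on the log2 scale (adjusted p = 3.66e-06, limma). In WT mice it had 6.73, 6.19 and 6.60 FPKM at day 60, against 13.8, 13.0 and 12.1 FPKM at day 5, a log2 change of -0.89 ± 0.09 (adjusted p = 9.94e-09, limma). Rescaled by median of ratios, the Gstm5 change was -0.38 in hCAR-TG and -0.73 in WT mice, and both were still called.

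Gstm7 had 51.6, 46.2 and 48.1 FPKM at day 60, against 26.5, 24.01 and 30.02 FPKM at day 5, in hCAR-TG mice, a log2 change of 0.84 ± 0.08 (adjusted p = 4.10e-09, limma). In WT mice it had 31.3, 33.5 and 33.0 FPKM at day 60, against 27.4, 28.6 and 32.4 FPKM at day 5, with overlapping ranges and a log2 change of 0.14 ± 0.08 (adjusted p = 0.106, limma). With median-of-ratios scaling the WT change was 0.32 and was called (adjusted p = 0.000945). The WT change was also called with array weights (0.19, adjusted p = 0.00717) and with the read file number as a factor (0.42, adjusted p = 0.0308). It was called without replicate 3 of the day 5 corn oil group too (0.21, adjusted p = 0.0273). Markers of blood cells moved with age as well: 6 erythroid markers summed to 1113 to 1446 FPKM at day 60, against 10746 to 13629 FPKM at day 5, in hCAR-TG mice, and to 1450 to 1946 FPKM at day 60, against 4624 to 6488 FPKM at day 5, in WT mice. Neutrophil markers summed to 16.8 to 21.8 FPKM at day 60, against 1108 to 1432 FPKM at day 5, in hCAR-TG mice, and to 5.32 to 7.12 FPKM at day 60, against 297.1 to 767.4 FPKM at day 5, in WT mice. Hepatocyte markers summed to 43343 to 50743 FPKM at day 60, against 66136 to 68474 FPKM at day 5, in hCAR-TG mice, and to 38665 to 47566 FPKM at day 60, against 73992 to 75196 FPKM at day 5, in WT mice. Sums of Kupffer cell, stellate cell, sinusoidal endothelial and cholangiocyte markers were also lower at day 60 in both genotypes, with separate ranges. So were those of intestinal and skeletal muscle markers in hCAR-TG mice and pancreatic acinar markers in WT mice. The part of these shifts in the Gstm values was not tested.

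Ordered by mean level over the 8 groups, Gstm1 and Gstm3 had the same 3 highest groups, day 60 WT with TCPOBOP, day 60 hCAR-TG with CITCO and day 5 WT with TCPOBOP, each separate from the next by its library values. For Gstm2 neighbouring places, day 60 hCAR-TG with corn oil (83.5 ± 5.20 FPKM) and day 5 WT with TCPOBOP (71.96 ± 11.6 FPKM), overlapped. Gstm6 was highest in day 60 hCAR-TG mice given CITCO, at 140.5 ± 7.03 FPKM, above day 60 WT mice given TCPOBOP at 117.0 ± 2.80 FPKM, with no overlap. Gstm5 was highest in day 5 WT mice given TCPOBOP, at 24.3 ± 0.73 FPKM. The highest group mean was 1250 times the lowest for Gstm3, 107.6 times for Gstm2, 72.5 times for Gstm1, 10.6 times for Gstm4, 9.56 times for Gstm6, 3.74 times for Gstm5 and 1.81 times for Gstm7.

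Across the 24 libraries, which share groups, ages and treatments, log2(FPKM + 1) of Gstm1, Gstm2, Gstm3 and Gstm4 had Pearson correlations of 0.94 to 0.99 with one another. Gstm5 had -0.07 to 0.19 with those 4 and -0.44 with Gstm6, and Gstm6 and Gstm7 had 0.83 with each other. These are descriptions over libraries of 8 groups and carry no test. Outside the family, the gene most like Gstm1 was Gsta1, an alpha class glutathione S-transferase (r = 0.98), and Gsta1 was among the 3 most similar genes of Gstm2, Gstm3 and Gstm4 too. The gene most like Gstm2 and Gstm4 was Entpd5, a nucleoside diphosphatase of the endoplasmic reticulum (r = 0.99 for both). For Gstm3 it was Dock8, an exchange factor for small GTPases (r = 0.98), followed by Gstt1, a theta class transferase. For Gstm5 it was Rap1gap, an inhibitor of the GTPase Rap1 (r = 0.98), and for Gstm6 it was Mocos, the sulfurase of the molybdenum cofactor (r = 0.99). For Gstm7 it was Asgr1, a subunit of the hepatocyte asialoglycoprotein receptor (r = 0.89).

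Of 20 other glutathione S-transferases 17 were tested. Their counts, and those of the lists after them, stand beside the shares of all tested genes called higher and lower, which were 4.40% and 3.97% for CITCO at day 60, 8.27% and 8.82% for CITCO at day 5, 31.4% and 15.8% for TCPOBOP at day 60, and 24.6% and 11.3% for TCPOBOP at day 5. With CITCO at day 60, 8 were called higher and 0 lower in hCAR-TG mice, and at day 5 3 were called higher and 0 lower. With TCPOBOP at day 60, 8 were called higher and 2 lower in WT mice, and at day 5 12 were called higher and 0 lower. Gsta1 averaged 1172 ± 115.7 FPKM with TCPOBOP and 6.86 ± 2.87 FPKM with corn oil at day 60 (SD, n = 3), a log2 change of 7.28 ± 0.18 (adjusted p = 3.79e-17, limma). In the corn oil comparison of genotypes at day 60, limma called 0 of these 17 genes, and 3 had a p under 0.05 before adjustment. Of all tested genes 3.05% were called higher and 1.85% lower in that comparison. A count of 0 among 17 is near those shares.

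Of 15 tested genes for glutathione synthesis and recycling, TCPOBOP in WT mice raised 8 and lowered 3 at day 60, and raised 10 and lowered 2 at day 5. Pgd, which makes NADPH in the pentose phosphate pathway, changed by 2.17 ± 0.10 on the log2 scale at day 60 (adjusted p = 1.71e-13, limma). CITCO in hCAR-TG mice raised 4 and lowered 1 at day 60, among them Gclm, the regulatory subunit of the enzyme that starts glutathione synthesis (0.42 ± 0.07, adjusted p = 0.000455, limma), and raised 3 and lowered 2 at day 5. The list's median log2 change was 0.33 with TCPOBOP at day 60 and 0.10 with CITCO at day 60, beside 0.06 and 0.00 for all tested genes.

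Genes that export glutathione conjugates or turn them into mercapturates numbered 14 tested. TCPOBOP in WT mice raised 7 and lowered 2 at day 60, and raised 11 and lowered 0 at day 5. CITCO in hCAR-TG mice raised 4 and lowered 0 at day 60, and raised 4 and lowered 2 at day 5. The pumps Abcc2, Abcc3 and Abcc4 rose in all 4 comparisons. Abcc3 averaged 129.0 ± 5.86 FPKM with CITCO and 58.2 ± 2.92 FPKM with corn oil at day 60 in hCAR-TG mice, and 191.7 ± 22.4 FPKM with TCPOBOP and 53.0 ± 8.24 FPKM with corn oil at day 60 in WT mice (SD, n = 3 each).

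NRF2, the transcription factor of the antioxidant response, and its targets are listed because several mu class genes are among those targets in other settings. The list also holds Nfe2l2, the gene of NRF2 itself, and Keap1. It shares Abcc3, Gclm, Gsr and Txnrd1 with the 2 lists above, so the counts are not independent of theirs. Of 16 tested, CITCO in hCAR-TG mice raised 7 and lowered 0 at day 60, and raised 6 and lowered 2 at day 5. TCPOBOP in WT mice raised 12 and lowered 1 at day 60, and raised 11 and lowered 0 at day 5. Ephx1, which encodes microsomal epoxide hydrolase, changed by 1.46 ± 0.09 with CITCO and 2.31 ± 0.09 with TCPOBOP at day 60 on the log2 scale. In day 60 hCAR-TG against WT mice given corn oil, 2 of the 16 were called higher (G6pdx and Srxn1) and 0 lower. Of all tested genes 3.05% were called higher and 1.85% lower there. Of 9 tested genes of CAR and its partners, Nr1i3, which encodes mouse CAR, fell with TCPOBOP to 21.8 ± 2.34 FPKM at day 60, against 68.2 ± 12.9 FPKM with corn oil (adjusted p = 3.84e-07, limma). Nr1i3 is a mouse gene entry, and its values are not compared with those of mice that carry the human receptor.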

How the data were processed

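Liver mRNA was measured in 24 libraries of 8 groups, made with a stranded TruSeq kit from RNA extracted with RNA Bee, per the labels' protocols. The authors deposited 1 table of FPKM values per library, each with 24885 entries, an interval and a status per the file headers. The build was mm10 per the submitters' processing notes, and aligner, quantification tool and annotation are not given in the sources used here. FPKM divides by transcript length and library total, so a rise of very abundant genes lowers all others. Entries of 1 symbol were summed and 5 genes with a failed estimate left out. Genes that reached 1 FPKM in 3 or more libraries were fitted as log2(FPKM + 1) with limma 3.58.1 (R 4.3.3; trend and robust), 8 group means, 16 residual degrees of freedom, two-sided, with Benjamini-Hochberg adjustment over 12282 genes. The fit was tested on simulated data. A fold on the log2(FPKM + 1) scale understates the change of low genes. Groups are those of the sample titles. The members, lists and named genes (each member's 3 most correlated genes, and up to 3 called genes of lowest adjusted p per list) were chosen with earlier results of these data known, and the text prints part of them. Alternatives were median-of-ratios scaling, a pseudocount of 0.1, no filter or 5 FPKM, array weights, the compared libraries alone, a replicate block, the read file number as a factor and leaving out libraries. Promoters come from RefSeq, and transcripts from GENCODE M21, aligned with Biopython 1.88.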

Additional observations from a re-analysis of the deposited data

Results flagged for a closer look

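Differences between responses passed the test for 20 values of single members. Under TCPOBOP in WT mice, the response at day 60 exceeded that at day 5 by 1.66 for Gstm2, 0.72 for Gstm3 and 1.09 for Gstm4 on the log2 scale. Under CITCO in hCAR-TG mice, it exceeded that at day 5 by 1.22 for Gstm1, 0.69 for Gstm2, 2.45 for Gstm3, 0.98 for Gstm4 and 0.43 for Gstm6.

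Between hCAR-TG with CITCO and WT with TCPOBOP, the difference in response at day 60 was -1.41 for Gstm1, -3.28 for Gstm2, -3.58 for Gstm3, -1.28 for Gstm4, -0.94 for Gstm5 and -0.30 for Gstm6. At day 5 it was -2.58 for Gstm1, -2.32 for Gstm2, -5.32 for Gstm3, -1.17 for Gstm4, -0.75 for Gstm5 and -0.93 for Gstm6. The 4 comparisons share corn oil groups, so these values are not independent of one another.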

How the results depend on the processing

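Counts of called members within 1.5 times of the main ones were found in all 12 comparisons under median-of-ratios scaling, the replicate block, either other filter and the smaller pseudocount. Array weights gave 6 for CITCO at day 5 and 3 for corn oil hCAR-TG against WT at day 5, among them Gstm7 as lower. That day 5 genotype count was 0 with the compared libraries alone and 0 without the 3 libraries with pancreatic transcripts, a setting chosen after seeing the data, and 0 to 1 when single libraries were left out. Corn oil hCAR-TG against WT at day 60 gave 2 with the read file number as a factor, which could be fitted for 7 of the 12 comparisons. The causes of these changes were not tested. That number could not be fitted for TCPOBOP at day 5, the TCPOBOP age difference or the response difference at day 5. Nor could it be for corn oil hCAR-TG against WT at day 5, or for age under corn oil in hCAR-TG mice. With the replicate block, CITCO at day 60 gave 5 called members, and the block changed no call; same-numbered libraries did not deviate together in every pair, so the numbers were not taken to pair them.

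Values that changed sign were all uncalled and near 0. With the read file number, the CITCO change at day 5 was -0.0802 for Gstm5, -0.0074 for Gstm6 and -0.0272 for Gstm7, and the CITCO age difference of Gstm5 was 0.12. With median-of-ratios scaling that difference was 0.0303, the Gstm7 difference between hCAR-TG and WT responses at day 5 was 0.0090, and the Gstm5 corn oil change between genotypes at day 5 was -0.0414. Array weights gave 0.0664 and -0.11 for these last values. Without the pancreatic libraries the Gstm7 values were 0.0238 for the TCPOBOP age difference and 0.0072 for the response difference at day 5, and Gstm6 was 0.0225 between genotypes at day 5. When single libraries were left out, Gstm1 ranged from -0.0264 to 0.1455 and Gstm7 from -0.1072 to 0.0095 in the TCPOBOP age difference, Gstm5 from -0.1036 to 0.0917 in the CITCO age difference, Gstm7 from -0.115 to 0.0402 in the response difference at day 5, and Gstm5 from -0.0878 to 0.0617 and Gstm6 from -0.0966 to 0.0225 between genotypes at day 5.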
